A study of Mus musculus with 4 samples.

Results

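The machinery that ends transcripts was examined in mouse intestinal stem cells with and without CREPT, the product of Rprd1b. It was taken as the 10 genes Cpsf1, Cpsf2, Cpsf3, Cpsf4, Cstf1, Cstf2, Cstf3, Nudt21, Clp1 and Xrn2, listed by name for their role. All 10 were among the 18436 genes of the FPKM table (a level per length of transcript and per total of mapped fragments), and all 10 were among the 12621 genes tested. The cells were Lgr5-GFPhigh cells, sorted from intestinal crypts of 2 Lgr5-CREPTWT and 2 Lgr5-CREPTKO mice on the C57BL/6 background, 6 to 8 weeks old by the reporting summary. Lgr5-CREPTWT mice carried Lgr5-EGFP-IRES-creERT2, a tamoxifen-inducible Cre driven by the Lgr5 gene, without a floxed Rprd1b allele. Lgr5-CREPTKO mice carried the same allele and CREPT fl/fl, in which exon 3 of Rprd1b is flanked by loxP sites. Tamoxifen was injected daily (1 mg, 5 days) into both genotypes, and the cells were sorted on day 7. The Lgr5-GFP allele is mosaic, so some crypts lack GFP, whose cells the sort leaves out, and a transcript that has lost exon 3 can still be counted on Rprd1b.

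When RNA polymerase II runs past the end of a gene, the nascent RNA is cut and given a poly(A) tail. The cleavage and polyadenylation specificity factor (CPSF) reads the AAUAAA signal and holds the nuclease, the cleavage stimulation factor (CstF) binds the U- or GU-rich stretch further on, and the cleavage factors CFIm and CFIIm complete the complex. The exonuclease Xrn2 then degrades the RNA still attached to the polymerase, which helps the polymerase to leave the template. CREPT and its paralog RPRD1A bind the tail of the polymerase, as do several termination factors, and so the question was whether the transcripts of this machinery differed when Rprd1b was deleted.

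None of the 10 genes was called at an adjusted p under 0.05 by limma's moderated test on log2(FPKM + 0.5), with Benjamini-Hochberg adjustment over all genes tested. The count was 0 lower, where 2.67% of all tested genes were called lower in Lgr5-CREPTKO cells, and 0 higher, where 0.412% were called higher. At an unadjusted p under 0.05, 1 gene, Cpsf4, was lower and 0 were higher, against 15.2% and 9.27% of all tested genes. Log2 fold changes (Lgr5-CREPTKO minus Lgr5-CREPTWT) ran from -0.35 for Cpsf4 to 0.15 for Cpsf2, and 23.8% of all tested genes had a larger absolute log2 fold change than Cpsf4. The median over the 10 genes was -0.0057, beside -0.014 over all tested genes. Both Lgr5-CREPTKO values lay below both Lgr5-CREPTWT values for 4 genes (Cpsf4, Cstf2, Cstf3 and Clp1), where 31.0% of all tested genes did so, and above them for 1 gene (Cpsf2), where 25.6% did. Scaled to TPM, 2 genes (Cpsf4 and Cstf2) lay below in place of 4, and the share of all tested genes at that scaling was not computed.

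The same test separated the targeted gene. Rprd1b, at chr2:158028475-158078207 of GRCm38.p6, was 17.7 and 18.1 FPKM in the Lgr5-CREPTWT mice and 6.65 and 7.36 FPKM in the Lgr5-CREPTKO mice, which is -1.29 on the log2 scale (standard error 0.0946, adjusted p = 0.0280 by limma). Rprd1b transcript was thus still counted in both Lgr5-CREPTKO mice. Rprd1a, which encodes the paralog, was 10.9 and 13.4 FPKM against 4.18 and 3.09 FPKM, which is -1.62 on the log2 scale (adjusted p = 0.0333 by limma). Neither gene's call held once any of the 4 mice was left out, each being Lgr5-CREPTWT mouse 1 or 2 or Lgr5-CREPTKO mouse 1 or 2, since 0 genes in the whole table were then called, lower or higher. Both calls were also lost with no filter on low values and with no intensity trend. Over all settings the log2 fold changes lay between -1.36 and -1.23 for Rprd1b and between -1.82 and -1.43 for Rprd1a. In bulk RNA, fewer cells of a type and less RNA per cell cannot be told apart.

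FPKM sums were 495758 and 499327 in the Lgr5-CREPTWT mice and 468830 and 473662 in the Lgr5-CREPTKO mice, so both Lgr5-CREPTKO sums were lower. Counts of reads are not in the table, and the depth behind each value is therefore unknown. Of 9 stem cell and epithelial identity markers (Lgr5, Olfm4, Ascl2 and others), 0 were called in either direction, and their summed level was 6501 to 6601 FPKM in Lgr5-CREPTWT and 6718 to 6888 FPKM in Lgr5-CREPTKO cells. Olfm4 made up most of that sum. Of the 9 markers 6 lay higher in Lgr5-CREPTKO cells without overlap, where 25.6% of all tested genes did so. Among them were Lgr5 (log2 0.40, adjusted p = 0.176 by limma) and Axin2 (log2 0.43, adjusted p = 0.0601). Of the 9, 1 lay lower without overlap, Vil1 (log2 -0.79, adjusted p = 0.0689), where 31.0% of all tested genes did so. Enteroendocrine markers moved with genotype, with 5 of 8 called lower (2.67% of all tested genes) and 8 of 8 lower without overlap. Their sum was 172 and 194 FPKM against 51.6 and 65.5 FPKM. Goblet markers had 1 of 7 called lower and 6 of 7 lower without overlap, with sums of 1465 and 2441 FPKM against 802.3 and 935.8 FPKM. Tuft markers had 0 of 4 tested called and 4 of 4 lower without overlap, with sums of 17.1 and 33.8 FPKM against 14.3 and 5.87 FPKM. Paneth and enterocyte markers had 0 called, and their sums overlapped between genotypes. Immune markers summed to at most 13.4 FPKM, with 0 of 5 tested called. The 7 stromal and endothelial markers summed to at most 0.79 FPKM, and none passed the filter on low values. The part of these populations in the differences below was not tested.

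Levels differed far more between the 10 genes than between the genotypes. Nudt21 had the highest level in every mouse, from 76.4 to 83.5 FPKM, a mean above that of 92.7% of tested genes. Clp1 had the lowest, from 9.61 to 11.04 FPKM, a mean above that of 46.6% of tested genes. In order of mean FPKM the genes were Nudt21, Cpsf1, Xrn2, Cpsf3, Cstf2, Cpsf4, Cstf1, Cstf3, Cpsf2 and Clp1. The ranges over the 4 mice did not touch at 4 steps of this order, which set Nudt21 above Cpsf1, Cpsf3 above Cstf2, Cstf1 above Cstf3 and Cpsf2 above Clp1. The other neighbours overlapped, and so their order was not fixed by these mice. FPKM is scaled by transcript length, so these levels can be compared between genes, although RSEM's choice of transcript lengths enters each value.

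**Figure D1:**
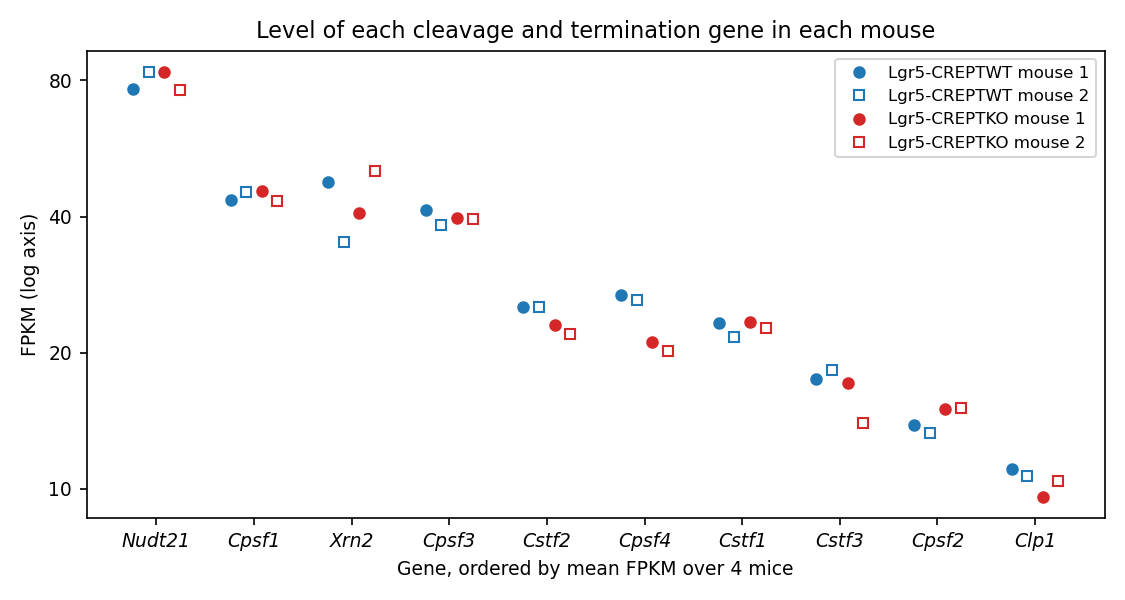
FPKM (log axis) of each of the 10 genes in each mouse, with Lgr5-CREPTWT mice in blue and Lgr5-CREPTKO mice in red, and mouse 1 as filled circles and mouse 2 as open squares. Nudt21 lies between 76.4 and 83.5 FPKM and Clp1 between 9.61 and 11.04 FPKM, while the red and blue points of most genes lie close together, and those of Xrn2 are the most scattered.

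Of the CPSF genes, Cpsf1 encodes the large scaffold subunit, Cpsf3 the nuclease that makes the cut, Cpsf2 its inactive relative and partner, and Cpsf4 a small zinc finger protein that contacts the AAUAAA signal together with WDR33. Cpsf4, at chr5:145167213-145182041 on the plus strand, was 26.8 and 26.2 FPKM in the Lgr5-CREPTWT mice and 21.1 and 20.1 FPKM in the Lgr5-CREPTKO mice. The genotypes did not overlap, and each pair of mice was close. The means were 26.5 ± 0.417 and 20.6 ± 0.693 FPKM (SD, n = 2), a level 22.2% lower in Lgr5-CREPTKO cells. The log2 fold change was -0.35 with a standard error of 0.0755 and a 95% interval, not adjusted for the number of genes, of -0.55 to -0.16. This was the 1 interval of the 10 that left out 0. The adjusted p by limma was 0.0749, between 0.0591 and 0.319 over the other settings tried, so Cpsf4 was not called under any of them. Its relative Cpsf4l was between 0.09 and 0.29 FPKM and below the filter.

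Cpsf2, at chr12:101975759-102005993 on the plus strand, and Xrn2 had the largest log2 fold changes upward, and these were nearly equal (0.146 and 0.145). The level of Cpsf2 was 13.8 and 13.3 FPKM in Lgr5-CREPTWT and 15.0 and 15.1 FPKM in Lgr5-CREPTKO mice, without overlap between the genotypes. The log2 fold change was 0.15 (standard error 0.0810, 95% interval -0.062 to 0.35, adjusted p = 0.336 by limma). Cpsf3 and Cpsf1 gave no such separation. Cpsf3, at chr12:21286273-21315056, was 41.4 and 38.4 FPKM against 39.8 and 39.4 FPKM, and the log2 fold change was -0.010 and an interval of -0.20 to 0.18. Cpsf1, at chr15:76595808-76607661, was 43.5 and 45.3 FPKM against 45.5 and 43.2 FPKM, and the log2 fold change was -0.0013 and an interval of -0.19 to 0.18. For both, the Lgr5-CREPTKO values lay among the Lgr5-CREPTWT values or within 1 FPKM of them. The 95% intervals, not adjusted for the number of genes, covered ratios of 0.869 to 1.14 for Cpsf3 and 0.878 to 1.14 for Cpsf1. They hold for this scaling, and scaled to TPM the log2 fold changes were 0.068 for Cpsf3 and 0.077 for Cpsf1.

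The ratio of 2 genes within a mouse does not depend on how libraries are scaled. The level of Cpsf4 relative to the geometric mean of Cpsf1, Cpsf2 and Cpsf3 was 0.917 and 0.919 in Lgr5-CREPTWT mice and 0.702 and 0.681 in Lgr5-CREPTKO mice. Relative to the mRNA of Cpsf1, Cpsf2 and Cpsf3, Cpsf4 mRNA was thus lower in both Lgr5-CREPTKO mice. This ratio was examined after the values of Cpsf4 were seen and rests on them. The ratio of Cpsf3, the nuclease, to Cpsf2 was 2.99 and 2.89 against 2.65 and 2.61. With 2 mice in each group the smallest two-sided p of an exact permutation test is 0.333, and so the ratios are given without a test. How often ratios of other pairs of genes lack overlap was not computed, here or for the ratios below.

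Promoters of Cpsf4 and Cpsf2 are shown because, among the CPSF genes of the 10, they are those whose genotypes did not overlap, in opposite directions. They are RefSeq windows of 300 bases on GRCm38.p6 that span the gene start, written 5′ to 3′ on the gene's strand, at chr5:145166963-145167262 for Cpsf4 and chr12:101975724-101976023 for Cpsf2. Capitals mark GGGCGG (the GC box) in Cpsf4 and AAGATGG (a core of YY1 sites) in Cpsf2.
Cpsf4: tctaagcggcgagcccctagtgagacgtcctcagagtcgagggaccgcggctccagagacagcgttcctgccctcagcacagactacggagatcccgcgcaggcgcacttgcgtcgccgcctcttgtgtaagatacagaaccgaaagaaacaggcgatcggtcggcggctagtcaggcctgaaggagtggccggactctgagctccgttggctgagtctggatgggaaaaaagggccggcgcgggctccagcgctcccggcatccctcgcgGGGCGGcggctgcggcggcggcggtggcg
Cpsf2: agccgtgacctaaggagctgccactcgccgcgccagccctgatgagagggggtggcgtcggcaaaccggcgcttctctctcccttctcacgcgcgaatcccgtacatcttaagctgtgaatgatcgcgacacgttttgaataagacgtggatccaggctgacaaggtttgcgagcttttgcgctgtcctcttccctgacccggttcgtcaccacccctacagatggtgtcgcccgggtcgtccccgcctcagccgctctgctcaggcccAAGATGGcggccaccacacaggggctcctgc

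Windows were found for 9 of the 10 genes, all but Cpsf1. Each held between 17 and 35 CpG dinucleotides, with a median of 26, where the median of all 32851 windows was 7 and 31.4% held at least 17. The letters TATAAA were in 0 of the 9, on either strand, and in 13.6% of all windows. CCGGAAG, a core of ETS factor sites, was in 4 of the 9 (Cstf3, Xrn2, Nudt21 and Cpsf3) and in 8.86% of all windows. GGGCGG was in 4 of the 9 and 35.7% of all, CCAAT in 2 and 37.4%, TGCGCA (a core of NRF1 sites) in 3 and 7.76%, and AAGATGG in 2 and 6.34%. Motifs were searched on both strands and none of these 6 words contains another, and a match is a description of the letters only. The genes with CCGGAAG had no common direction, with log2 fold changes of -0.20, 0.14, 0.00031 and -0.010 for Cstf3, Xrn2, Nudt21 and Cpsf3.

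CstF is built from Cstf1, Cstf2 and Cstf3. Cstf2 encodes the subunit that binds the downstream RNA, Cstf3 the scaffold that holds the others, and Cstf1 a WD-repeat partner. Cstf2, at chrX:134059176-134086822 on the plus strand, was 25.3 and 25.2 FPKM in Lgr5-CREPTWT mice and 23.0 and 22.0 FPKM in Lgr5-CREPTKO mice. The genotypes did not overlap, and the log2 fold change was -0.16 (standard error 0.0741, 95% interval -0.35 to 0.030, adjusted p = 0.261 by limma). Cstf3 was 17.5 and 18.3 FPKM against 17.2 and 14.0 FPKM, which is -0.20 on the log2 scale with an interval of -0.51 to 0.11 (adjusted p = 0.376). The lower mean of Cstf3 came mainly from Lgr5-CREPTKO mouse 2, and without that mouse its log2 fold change was -0.055. Cstf1 overlapped between the genotypes, at 23.3 and 21.7 FPKM against 23.4 and 22.6 FPKM, and the log2 fold change was 0.035 and an interval of -0.17 to 0.24.

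Cstf2 has a retrogene copy, Cstf2t, which encodes a similar RNA-binding subunit. Cstf2t was 11.3 and 13.1 FPKM in Lgr5-CREPTWT and 11.04 and 11.6 FPKM in Lgr5-CREPTKO mice, and the log2 fold change was -0.10 (adjusted p = 0.607 by limma). Reads shared between the 2 genes could be assigned to either, and their values are uncertain to that extent. The ratio of Cstf2 to Cstf2t overlapped between genotypes, at 2.24 and 1.93 against 2.08 and 1.91. Relative to Cstf1, Cstf2 was 1.08 and 1.16 in Lgr5-CREPTWT and 0.984 and 0.973 in Lgr5-CREPTKO mice, without overlap. The sex of each mouse is not in the labels. Xist, the X-inactivation transcript, was 100.5 and 93.7 FPKM in Lgr5-CREPTWT and 169.2 and 125.3 FPKM in Lgr5-CREPTKO mice. These values did not overlap, and the log2 fold change was 0.58 (adjusted p = 0.109 by limma). The Y-linked Ddx3y was at 0.02 FPKM or less in all 4 mice. All 4 mice thus had Xist and almost no Ddx3y, and the part of the Xist difference in the value of the X-linked Cstf2 was not tested.

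The 3′ end of Cstf2 overlaps another gene. Nox1, an NADPH oxidase gene on the opposite strand, ends inside the last exon of Cstf2, and 399 bases, 4.35% of the annotated exon bases of Cstf2 and 12.1% of those of Nox1, lie in exons of both. Nox1 was 5.87 and 12.5 FPKM in Lgr5-CREPTWT and 0.12 and 1.27 FPKM in Lgr5-CREPTKO mice. Whether the libraries or the counting kept strand is not given in the sources used here, so reads in the shared stretch cannot be told apart. Both genes were lower in both Lgr5-CREPTKO mice, and the part of shared reads in the value of Cstf2 was not tested. Exons of 3 other members also overlap another gene: 14 bases of Cpsf1 with Adck5, 196 bases of Cpsf3 with Itgb1bp1, which was between 4.12 and 4.51 FPKM, and 147 bases of Cpsf2 with Ndufb1-ps.

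**Figure D2:**
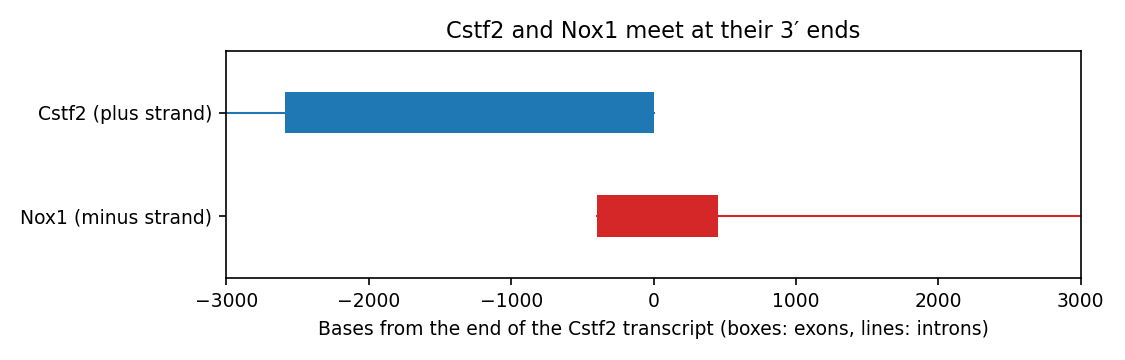
Map of the 3′ ends of Cstf2 (blue, plus strand) and Nox1 (red, minus strand) in bases from the end of the longest principal Cstf2 transcript of GENCODE M21, with exons as boxes and introns as lines. The last exon of Nox1 reaches 399 bases into the last exon of Cstf2.

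The ends of the transcripts were searched for the AAUAAA signal that CPSF reads. In the longest principal transcript of each gene in GENCODE M21, AATAAA lay in the last 40 bases of 7 of the 10 members, beside 61.9% of 11394 tested protein-coding genes. The variant ATTAAA alone was in 0 of the 10 members and 14.4% of those genes, and neither word was there in 3 members (Cpsf1, Cpsf3 and Cpsf4) and 23.7% of genes. The last 30 bases of the 7 are given with the copy of the signal nearest the end in capitals, and the 11 to 19 bases that follow it before the annotated end. Xrn2 holds another copy before it in lower case, and in Cpsf2 an earlier copy overlaps the one in capitals. They are written as DNA, 5′ to 3′ on the gene's strand, on GRCm38. GENCODE places some of these ends beyond the RefSeq ends given for the genes here.
Cpsf2: tatttcgctaataAATAAAagatgctgagc
Cstf1: tctaaAATAAAttttttttatataacagtg
Cstf2: ctgtcgtggattcAATAAAtattttaaaag
Cstf3: aaaggAATAAAaggacctcaaaaacatgcc
Nudt21: gttatttcAATAAAaatatttaaaactgaa
Clp1: taagtatacAATAAAtttaaccttttcttc
Xrn2: aaaaataaaAATAAAgctaaactttaaaaa
They lie at chr12:102006395-102006424 (Cpsf2), chr2:172382419-172382448 (Cstf1), chrX:134086790-134086819 (Cstf2), chr2:104665400-104665429 (Cstf3), chr8:94015496-94015525 (Nudt21), chr2:84722104-84722133 (Clp1) and chr2:147077971-147078000 (Xrn2). Of the 3 members with neither word in the last 40 bases of that transcript, Cpsf4 had a log2 fold change of -0.35 and Cpsf1 and Cpsf3 lay at -0.0013 and -0.010. Other transcripts and other variants of the signal were not searched.

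CFIm and CFIIm are represented by a subunit each. Nudt21, which encodes the CFIm subunit that binds UGUA motifs and influences which poly(A) site is used, was 76.4 and 83.4 FPKM in Lgr5-CREPTWT and 83.5 and 76.4 FPKM in Lgr5-CREPTKO mice. The pairs coincided, and the log2 fold change was 0.00031. The 95% interval of Nudt21, not adjusted for the number of genes, was -0.22 to 0.22, which covers ratios of 0.859 to 1.16. Its partner subunits were not called, Cpsf6 at -0.058 (adjusted p = 0.733) and Cpsf7 at 0.090 (adjusted p = 0.475 by limma) on the log2 scale, although Cpsf7 did not overlap between the genotypes. Nudt21 relative to the sum of Cpsf6 and Cpsf7 was 1.38 and 1.48 against 1.42 and 1.37. Clp1, the CFIIm kinase that also acts in tRNA splicing, was 11.04 and 10.7 FPKM against 9.61 and 10.4 FPKM, without overlap. Its log2 fold change was -0.12 (standard error 0.0927, 95% interval -0.35 to 0.12, adjusted p = 0.492 by limma), and scaled to TPM it was -0.042, with the genotypes overlapping.

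Pcf11, the other CFIIm gene, whose product binds both the RNA and the polymerase tail, was 19.7 and 15.6 FPKM in Lgr5-CREPTWT and 21.8 and 20.9 FPKM in Lgr5-CREPTKO mice, and the log2 fold change was 0.27 (95% interval -0.056 to 0.60, adjusted p = 0.266 by limma). The ratio of Pcf11 to Clp1 was 1.78 and 1.46 against 2.27 and 2.01, without overlap, and was not tested. Clp1 also binds the tRNA splicing endonuclease, and of its 4 subunits 0 were called in either direction. The log2 fold change of Tsen15 was -0.26 (adjusted p = 0.152 by limma).

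**Figure D3:**
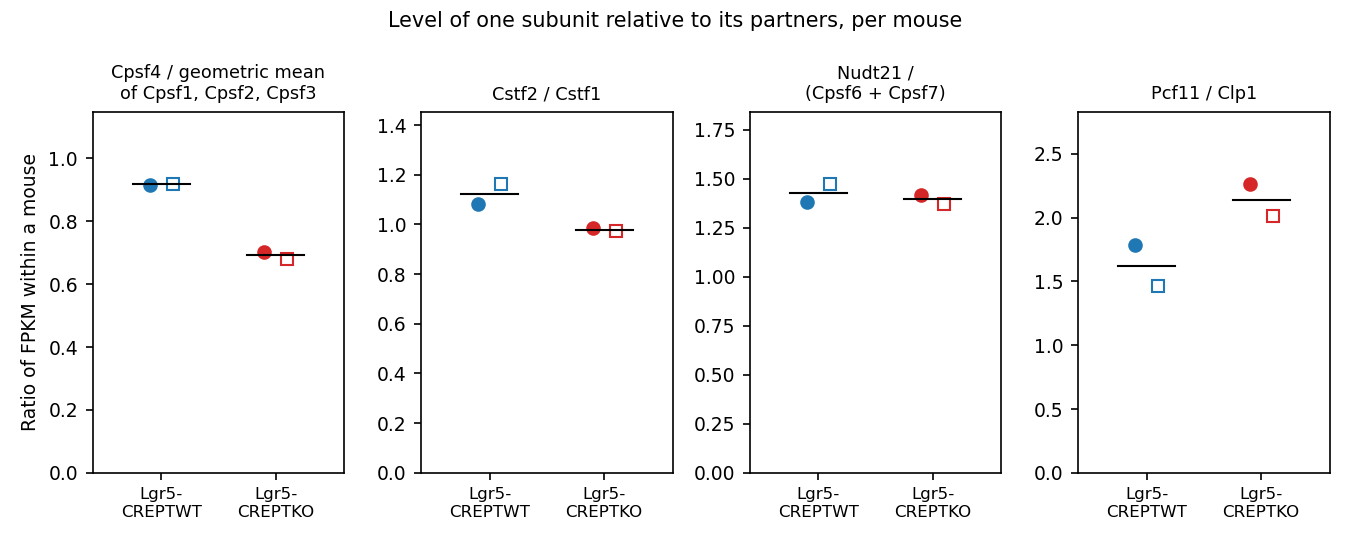
Selected ratios of FPKM within each mouse, with Lgr5-CREPTWT in blue, Lgr5-CREPTKO in red, mouse 1 as filled circles, mouse 2 as open squares and a line at the mean of 2 mice. Cpsf4 relative to the other CPSF genes is 0.917 and 0.919 in Lgr5-CREPTWT and 0.702 and 0.681 in Lgr5-CREPTKO mice, Cstf2 relative to Cstf1 and Pcf11 relative to Clp1 do not overlap between genotypes, and Nudt21 relative to Cpsf6 and Cpsf7 does.

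Xrn2, the exonuclease of termination, was the most variable member. At chr2:147012755-147078000 on the plus strand, it was 47.7 and 35.1 FPKM in Lgr5-CREPTWT and 40.7 and 50.5 FPKM in Lgr5-CREPTKO mice. The lowest value belonged to Lgr5-CREPTWT mouse 2 and the highest to Lgr5-CREPTKO mouse 2, and the genotypes overlapped. The mice of a genotype differed by 0.44 and 0.31 on the log2 scale in Lgr5-CREPTWT and Lgr5-CREPTKO cells, more than the difference of 0.14 between the genotypes (standard error 0.182, 95% interval -0.32 to 0.61, adjusted p = 0.675 by limma). The interval of the ratio, 0.799 to 1.53, was the widest of the 10. The direction rested on single mice, since the log2 fold change was -0.075 without Lgr5-CREPTWT mouse 2 and -0.0097 without Lgr5-CREPTKO mouse 2. Immediate early and heat shock genes, which respond to tissue dissociation, summed to 2283 and 1022 FPKM in Lgr5-CREPTWT and to 2021 and 1902 FPKM in Lgr5-CREPTKO mice. The lowest sum also fell in Lgr5-CREPTWT mouse 2, but immediate early genes made up most of each sum. The heat shock genes were highest in that mouse, Hspa1b at 39.2 FPKM and Hspa1a at 12.5 FPKM. Both were lowest in Lgr5-CREPTKO mouse 2, at 9.28 and 2.72 FPKM. The part of these genes in the spread of Xrn2 was not tested.

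Xrn1, the cytoplasmic relative of Xrn2, was 5.52 and 4.74 FPKM in Lgr5-CREPTWT and 6.51 and 6.85 FPKM in Lgr5-CREPTKO mice. It did not overlap between the genotypes, and the log2 fold change was 0.35 (95% interval 0.042 to 0.67, adjusted p = 0.166 by limma). The ratio of Xrn2 to Xrn1 was 8.64 and 7.40 against 6.24 and 7.37, so that Xrn2 exceeded Xrn1 in each mouse by a factor of at least 6.24. Genes for proteins that bind Xrn2 were not called, among them Nkrf at 0.38 on the log2 scale (adjusted p = 0.125) and Cdkn2aip with -0.060 (adjusted p = 0.836 by limma).

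For 6 of the 10 genes (Cpsf1, Cpsf3, Cstf1, Cstf3, Nudt21 and Xrn2), the difference between genotypes was smaller than the larger of the gaps between mice of one genotype, which held for 54.8% of all tested genes. In the plot of genotype difference against the gap between mice, Cpsf4 lies apart from the other 9, with a difference of 0.35 against a gap of 0.067. The median absolute log2 fold change was 0.13 for the members and 0.17 for all tested genes, and the median larger gap was 0.10 and 0.19. Most members sit above the median level of all tested genes, which was 11.7 FPKM, while the median of the 10 was 23.7 FPKM.

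**Figure D4:**
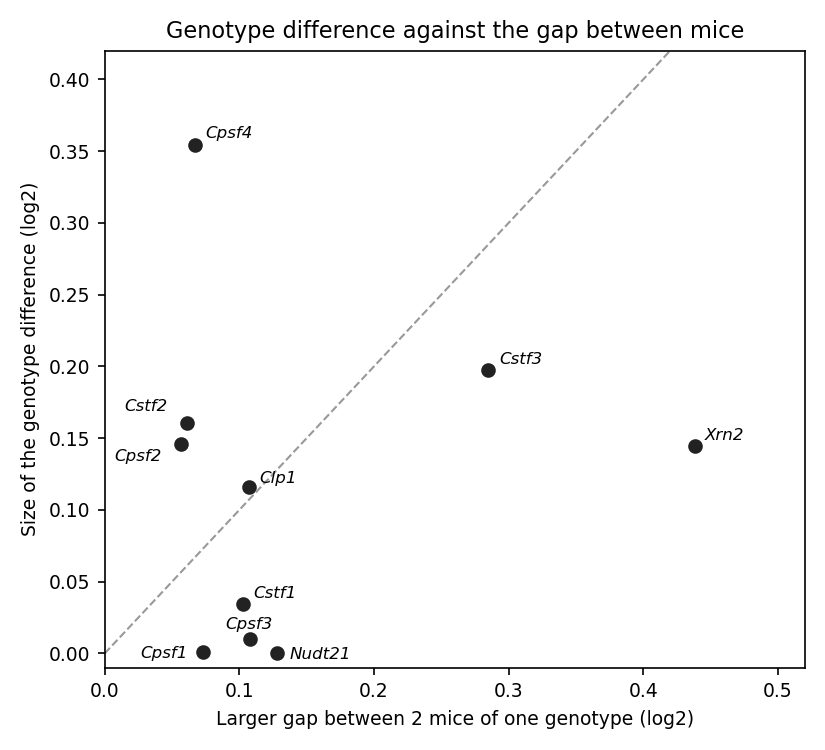
Size of the log2 difference between genotypes against the larger log2 gap between the 2 mice of a genotype, for each of the 10 genes, with a dashed line where both are equal. Cpsf4 lies far above the line at 0.35 against 0.067, and Xrn2 and Cstf3, which vary most between mice, lie below it.

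Of the members, 4 lie on chromosome 2 with Rprd1b, at distances between their lowest coordinates of 11.02 Mb (Xrn2), 14.3 Mb (Cstf1), 53.4 Mb (Cstf3) and 73.3 Mb (Clp1). The nearer pair, Xrn2 and Cstf1, had log2 fold changes of 0.14 and 0.035, and the farther pair, Cstf3 and Clp1, of -0.20 and -0.12. The member with the largest difference, Cpsf4, lies on chromosome 5.

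The partners of these genes were counted by lists. Among 12 tested genes of cleavage and polyadenylation, 0 were called lower and 0 higher, with a median log2 fold change of 0.033, and 2 were higher at an unadjusted p under 0.05 (9.27% of all tested genes). Those were Sympk, which encodes the scaffold symplekin, and Papola, which encodes the main poly(A) polymerase. Sympk was 51.3 and 53.0 FPKM in Lgr5-CREPTWT and 64.3 and 64.0 FPKM in Lgr5-CREPTKO mice, which is 0.30 on the log2 scale (95% interval 0.13 to 0.47, adjusted p = 0.0823 by limma). Papola was 60.3 and 60.4 FPKM against 69.0 and 66.9 FPKM, which is 0.17 on the log2 scale (adjusted p = 0.202). The remaining CPSF subunits, Wdr33 and Fip1l1, had log2 fold changes of 0.19 (adjusted p = 0.231) and 0.055 (adjusted p = 0.731). Both Lgr5-CREPTKO values lay above both Lgr5-CREPTWT values for 5 of the 12 and below them for 1 (25.6% and 31.0% of all tested genes).

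Among 18 genes of termination and of the polymerase tail, 2 were called lower (Rprd1a and Rprd1b, described above) and 0 higher, with a median log2 fold change of 0.10. The third gene of that family, Rprd2, had a log2 fold change of 0.10 (adjusted p = 0.660 by limma). Both Lgr5-CREPTKO values lay above both Lgr5-CREPTWT values for 9 of the 18 and below them for 4 (25.6% and 31.0% of all tested genes). The 9 included Scaf4 and Scaf8, which prevent early polyadenylation, at log2 fold changes of 0.24 (adjusted p = 0.153) and 0.20 (adjusted p = 0.215). Tox4, whose product binds the phosphatase scaffold PNUTS, was lower without overlap at 18.7 and 19.5 FPKM against 14.2 and 14.9 FPKM, which is -0.38 on the log2 scale (adjusted p = 0.0772 by limma).

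Integrator, which cuts snRNAs and attenuated transcripts with relatives of CPSF subunits, had 14 genes tested, of which 0 were called lower and 0 higher, with a median log2 fold change of 0.056. Its nuclease gene, listed as Cpsf3l (Ints11), had a log2 fold change of 0.12 (adjusted p = 0.382), and Ints9, the relative of Cpsf2, one of 0.081 (adjusted p = 0.590 by limma). Ints7 and Ints3 had the largest, 0.24 and 0.21. The 5 histone pre-mRNA cleavage factors tested had 0 called in either direction, with log2 fold changes of -0.17 for Slbp, which binds the histone stem-loop, and of -0.38 for Zfp473, which was between 0.61 and 1.23 FPKM. Over the partner lists, each gene counted once and without Rprd1a and Rprd1b, 0 of 50 were called in either direction, an unadjusted p under 0.05 was reached by 2 that were lower and 8 that were higher, and both Lgr5-CREPTKO values were above both Lgr5-CREPTWT values for 20 of the 50 and below them for 6. Over all tested genes these shares were 15.2% lower and 9.27% higher at that unadjusted p, 25.6% above and 31.0% below.

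**Figure D5:**
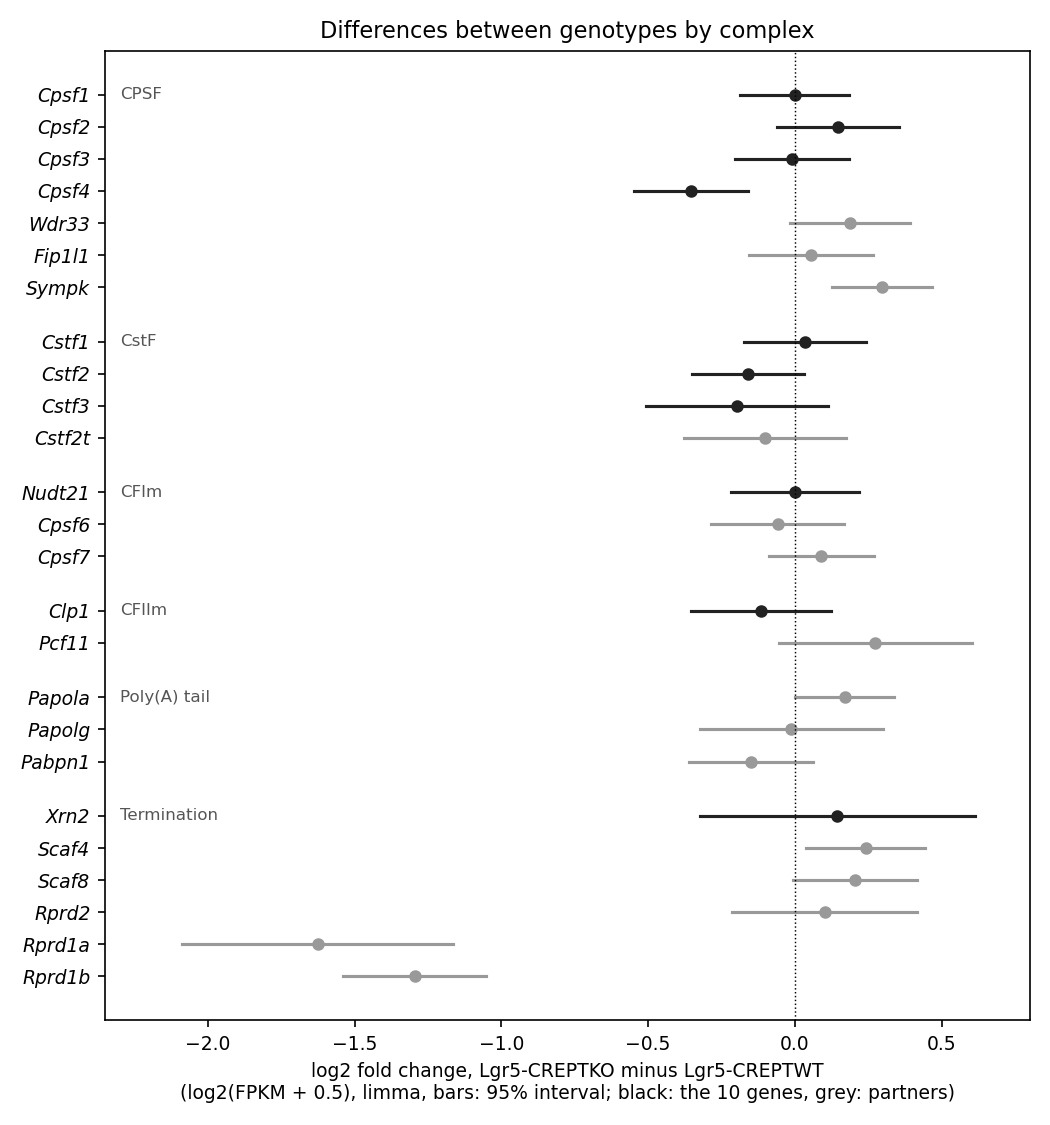
Log2 fold change (Lgr5-CREPTKO minus Lgr5-CREPTWT) of the 10 genes in black and selected partners in grey, grouped by complex, with 95% intervals by limma as bars. Among the black points the interval of Cpsf4 alone leaves out 0, at -0.55 to -0.16, and Rprd1a and Rprd1b lie far below the rest at -1.62 and -1.29.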

How the data were processed

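The authors deposited 1 table of FPKM values, rounded to 2 decimals, in which rows are gene symbols and the columns, named as the sample titles, are mice. By the study's methods, BGISEQ reads were aligned by Bowtie2 to the transcripts of GRCm38.p6, and RSEM gave the expression values, and the submitters' processing notes also name HISAT and mm10, without versions. FPKM is relative to all other genes of a mouse and holds no counts, so the count model of the study was replaced by limma 3.58.1 in R 4.3.3. The scale was log2(FPKM + 0.5), only genes whose mean over the 4 mice reached 0.5 FPKM were tested (12621 of 18436), and an intensity trend was used, without a replicate term. Genes were called at an adjusted p under 0.05 (Benjamini-Hochberg, two-sided). The p-values rest on 2 mice per genotype and on a spread that limma moderates over all genes. The method was tested on simulated data.

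The members and lists were chosen with earlier results of these data known. Named genes are all members, Rprd1b and Rprd1a, in each partner list every gene called and the 2 with the largest absolute log2 fold change, and the paralogs Cstf2t, Cpsf6, Cpsf7, Ints9, Ints11 (listed as Cpsf3l) and Xrn1. Some partner genes that this rule names are not reported here. Other partners that are named, and the overlapping genes, were chosen after their values were seen. Promoters are from RefSeq on GRCm38.p6, and exons and transcript ends from GENCODE M21 on the same assembly. Other parts of the study were not analysed here. Alternatives tried were the pseudocount, the filter, the scaling, the trend, robust estimation, a replicate block, small RNA genes left out and each mouse left out.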

Additional observations from a re-analysis of the deposited data

How the results depend on the processing

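The counts of members called, 0 lower and 0 higher, were the same under all 16 alternatives, with a smallest adjusted p among members between 0.0591 (filter at 5 FPKM) and 0.319. The number of mice, 2 per genotype, limits what can be seen, as the intervals of the members show.

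Over all genes, 337 lower, 52 higher and 144 past an absolute log2 fold change of 1 as well were called. With no filter these were 0, 0 and 0, without the trend 4, 0 and 4, and in both cases 0 partners (Rprd1a and Rprd1b otherwise) were called. The filter at 5 FPKM gave 116 higher, TPM scaling 166 lower and 95 past the fold threshold, robust estimation 525 lower and 126 higher, and leaving out small RNA genes 508 lower and 115 higher. With any mouse left out, 0 genes and 0 partners were called, and the median of the members ran from -0.069 to -0.0071. TPM scaling moved the median of all genes to 0.054 and that of the members to 0.072, and quantile normalization moved the medians to 0.035 and 0.041. With TPM scaling 2 members lay below without overlap in place of 4, and the share of all tested genes that did so was not computed. The sign of Cpsf1 turned with TPM scaling (0.077), the median ratio (0.0087) and quantile normalization (0.050), and that of Cpsf3 with TPM scaling (0.068) and quantile normalization (0.037). With a mouse left out, Cpsf1 ran from -0.038 to 0.035, Cpsf3 from -0.064 to 0.044, Nudt21 from -0.064 to 0.064, Cstf1 from -0.017 to 0.086 and Xrn2 from -0.075 to 0.36. The causes were not tested. The numbers in the titles name different animals, and deviations of same-numbered mice had a correlation of -0.027 across genes. Whether same-numbered mice also shared a batch of handling cannot be told from this value with 2 mice per genotype. The fit with a replicate block called 168 lower and 15 higher, with 0 members among them.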
